A study of Mus musculus with 6 samples.

Results

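The mitochondrially encoded transcripts are the RNAs read from the mitochondrion's own circular genome. They were taken as every gene of the deposited expression table whose symbol starts with mt- in lower case, which gave 34 of the 23398 genes listed: 13 mRNAs, 2 ribosomal RNAs (rRNA) and 19 transfer RNAs (tRNA). GENCODE M21, the gene annotation on mouse build GRCm38, lists 37 genes on this genome, and mt-Tf, mt-Ts1 and mt-Td are not among the 34. The cells were mouse bone marrow derived dendritic cells (BMDC), which take up and present antigen. They received vehicle (vehicle libraries 1 to 3) or Ca(OH)2, calcium hydroxide, in the form of nanoparticles (nanoparticle libraries 1 to 3) for 12 hours, in medium with serum and antibiotics, and 1 µg of total RNA went into each library. The labels give no strain, sex, age or particle dose, and do not say whether replicates came from separate mice or cultures, so p-values measure only the spread between these libraries.

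The mitochondrial genome is transcribed in long precursors that start in or near its control region, a stretch without genes between mt-Tp and mt-Tf. Precursors of one direction, from the heavy-strand promoter, carry both rRNAs, 12 of the mRNAs and most tRNAs, and those of the other direction, from the light-strand promoter, carry mt-Nd6 and the remaining tRNAs. The tRNAs lie between the other genes, and cutting the precursor at its tRNAs frees the mRNAs and rRNAs. The mRNAs encode subunits of respiratory complexes I, III and IV and of ATP synthase, and the rRNAs are the RNA cores of the mitochondrial ribosome, which makes these proteins. All other subunits, and every protein that copies, cuts or translates these RNAs, come from the nucleus.

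The members that the results turn on are shown as sequences from the GENCODE M21 transcripts (GRCm38), 5′ to 3′ on the strand of the gene. The rRNA of the small subunit, mt-Rnr1, lies at chrM:70-1024 on the plus strand and that of the large subunit, mt-Rnr2, at chrM:1094-2675 on the same strand, and their last 60 bases are given with runs of 4 or more A in capitals, since these 2 RNAs rose. The proline tRNA mt-Tp (chrM:15356-15422, minus strand), which also rose, is given whole with its anticodon in capitals. So are mt-Th (chrM:11546-11612), mt-Ts2 (chrM:11613-11671) and mt-Tl2 (chrM:11671-11741), a block of neighbouring tRNAs on the plus strand that read histidine, serine and leucine codons, and mt-Tc (chrM:5192-5257, minus strand), which reads cysteine codons. Those 4 differed between nanoparticle library 1 and the other nanoparticle libraries.
mt-Rnr1: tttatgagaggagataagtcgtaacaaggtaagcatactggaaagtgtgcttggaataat
mt-Rnr2: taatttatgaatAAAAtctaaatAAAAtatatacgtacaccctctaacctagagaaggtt
mt-Tp: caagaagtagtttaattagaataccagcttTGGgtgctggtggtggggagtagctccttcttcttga
mt-Th: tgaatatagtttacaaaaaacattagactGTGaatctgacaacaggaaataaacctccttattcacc
mt-Ts2: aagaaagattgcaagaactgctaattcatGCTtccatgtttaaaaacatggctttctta
mt-Tl2: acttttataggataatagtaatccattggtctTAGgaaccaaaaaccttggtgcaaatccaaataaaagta
mt-Tc: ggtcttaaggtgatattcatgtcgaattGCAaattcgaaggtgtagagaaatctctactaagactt

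Positions were counted from the edge of the control region. Along the direction of transcription, mt-Tp starts after 0 bases on the minus strand, and mt-Rnr1 after 69 and mt-Rnr2 after 1093 bases on the plus strand. Between the rRNAs, mt-Tv, which did not pass, starts after 1024 bases. The next listed gene on the minus strand, mt-Te, starts after 1283 bases and mt-Nd6 after 1352. In base composition the rRNAs held 37.8% and 38.2% A, more than every mRNA except mt-Atp8 (40.7%). The other mRNAs held 22.2% to 36.9%. The longest runs of A were 5 and 7 bases in the rRNAs, within the 3 to 8 of the mRNAs.

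Values are FPKM, fragments per kilobase of gene length and per library scale, and the whole reads behind them could be recovered for all 34 members in every library. Recovered totals were 17219641 to 18153398 reads in the vehicle libraries and 17690584, 18390032 and 21902784 reads in nanoparticle libraries 1 to 3. The members took 2.35% to 2.56% of these reads in vehicle and 2.21% to 2.54% with nanoparticles, so the groups overlapped. The deposited scale places the nanoparticle libraries higher than their read totals would. With libraries scaled by total reads the median log2 difference of all genes tested moved to -0.29, so differences here are relative to the middle of all genes. Nanoparticle library 1 stood apart, with a correlation of log2(FPKM + 1) across genes of 0.942 and 0.928 with nanoparticle libraries 2 and 3, against 0.9895 between those and 0.9926 to 0.9938 between vehicle libraries. Dendritic cell markers were present except Flt3, which was under 1 FPKM in every library, while Cd209a and Clec10a fell to about 1 FPKM or less with nanoparticles. They summed to 6141 to 6583 FPKM in vehicle and 3424 to 7756 FPKM with nanoparticles. Of 9 tested 0 rose and 3 fell, where 17% of all genes tested were called higher and 16.2% lower. H2-Ab1 was at 982 to 1035 FPKM in vehicle and at 494, 1060 and 1162 FPKM with nanoparticles. Itgax, H2-Aa and Cd74 were also lowest in nanoparticle library 1, while Irf4 was highest in it. The summed markers of B cells, T cells and erythroid cells were at most 1.83 FPKM in any library. Macrophage markers summed to 1100 to 1244 FPKM in vehicle and 1006 to 1226 FPKM with nanoparticles. Of 9 tested 3 rose and 4 fell, beside the same 17% and 16.2% of all genes tested. Adgre1 among them was at 62.9 to 68.3 FPKM in vehicle and 276, 141 and 132 FPKM with nanoparticles. Mrc1 went the other way, at 51.8 to 62.8 FPKM in vehicle and 3.10, 10.6 and 9.57 FPKM with nanoparticles. C1qb was at 256 to 325 FPKM in vehicle and 64.8, 93.6 and 124 FPKM with nanoparticles. C1qa and C1qc were also below every vehicle library in each nanoparticle library. Neutrophil markers summed to 265 to 298 FPKM in vehicle and 180 to 253 FPKM with nanoparticles. Of 3 tested S100a8 rose and Mmp8 fell, beside the same shares of all genes tested. Ly6g, Mpo, Elane and Ltf were under 1 FPKM in every library. The part of these markers in the results was not tested. In bulk RNA of this kind, fewer cells of a type and less RNA per cell cannot be told apart.

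Nanoparticle treatment went with more rRNA and with no mRNA change that passed the test. Of the 34 members, 30 had at least 1 FPKM in at least 3 libraries and were tested with limma, and 3 passed a Benjamini-Hochberg adjusted p of 0.05 over all 10682 genes tested, all of them higher: mt-Rnr1, mt-Rnr2 and mt-Tp. That is 10% of the members tested, where 33.2% of all genes tested passed, 17% higher and 16.2% lower. By class, 2 of 2 rRNAs, 1 of 16 tRNAs and 0 of 12 mRNAs passed. At an unadjusted p under 0.05 there were 6 of 30 members, 1 of them an mRNA, and 44.4% of all genes tested. The groups were apart in 6 members, 5 of them higher with nanoparticles (mt-Rnr1, mt-Rnr2, mt-Tv, mt-Nd2 and mt-Tp) and 1 lower (mt-Nd4l), where 52.1% of all genes tested had groups apart, 25.9% higher and 26.2% lower. The 4 members not tested were mt-Atp8, mt-Tk, mt-Tg and mt-Tr.

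**Figure D1:**
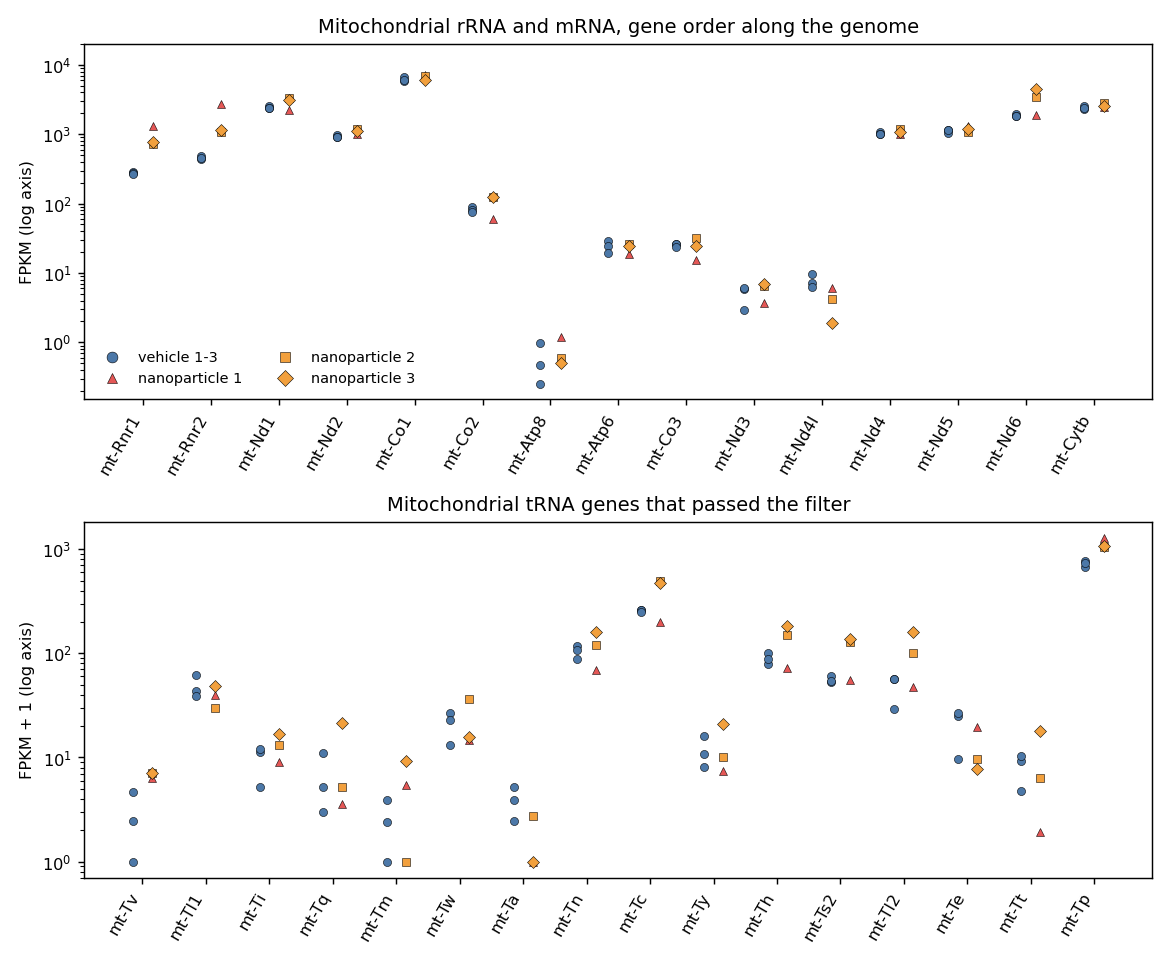
Deposited level of each member by library, on log axes, with the rRNAs and mRNAs above (FPKM) and the 16 tRNA genes that passed the filter below (FPKM + 1). Each point is 1 library: blue circles are vehicle, the red triangle nanoparticle library 1, and the orange square and diamond nanoparticle libraries 2 and 3. mt-Rnr1 lay at 265 to 285 FPKM in vehicle and at 715 to 1333 FPKM with nanoparticles, while the mRNAs from mt-Co2 to mt-Nd4l lay far below the other mRNAs in every library.

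The small-subunit rRNA mt-Rnr1 stood at 285, 274 and 265 FPKM in vehicle libraries 1 to 3 and at 1333, 715 and 772 FPKM in nanoparticle libraries 1 to 3. Every nanoparticle library was above every vehicle library, and nanoparticle library 1 was the highest. The log2 difference was 1.71 (SE 0.256, limma adjusted p = 0.0035), and it passed under all 16 alternative settings, at 1.24 to 1.88.

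The large-subunit rRNA mt-Rnr2 stood at 485, 438 and 447 FPKM in vehicle and at 2685, 1062 and 1148 FPKM with nanoparticles. The order of the libraries was like that of mt-Rnr1, with a wider gap between nanoparticle library 1 and the others. The log2 difference was 1.70 (SE 0.366, limma adjusted p = 0.014). It kept its direction in all 16 alternatives, at 1.22 to 1.94, and its call in 12. The call was lost without vehicle library 1, 2 or 3 in turn, and with equal sums of FPKM over the genes outside the mitochondrial genome, with an adjusted p of at most 0.0591. Without nanoparticle library 1 the log2 differences were 1.43 for mt-Rnr1 and 1.27 for mt-Rnr2, and both passed.

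Ratios between members of 1 library do not depend on how libraries were scaled. The rRNA to mRNA ratio of summed FPKM was 0.0449, 0.0459 and 0.0448 in vehicle and 0.234, 0.0886 and 0.0973 with nanoparticles. The nanoparticle libraries all lay above the vehicle libraries, by 5.18 times for library 1 and 2.06 times for the mean of libraries 2 and 3. Of the reads on the members, rRNA took 4.58% to 4.68% in vehicle and 20.05%, 9.01% and 10.15% with nanoparticles. The rRNAs also moved relative to each other. The mt-Rnr2 to mt-Rnr1 ratio of FPKM was 1.71, 1.60 and 1.69 in vehicle, 2.02 in nanoparticle library 1 and 1.49 in nanoparticle libraries 2 and 3, so library 1 lay above and the other 2 below every vehicle library.

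mt-Tv, the valine tRNA gene that sits between the rRNAs and whose tRNA is built into the large subunit of the human mitochondrial ribosome, rested on 2, 5 and 0 reads in vehicle and 6, 7 and 8 reads with nanoparticles. Its groups did not overlap, and its log2 difference of 1.60 (95% interval 0.34 to 2.85) did not pass (limma adjusted p = 0.058). Each of its values rests on a handful of reads.

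Other noncoding RNAs were compared with the rRNAs, 2 of them single genes chosen after their values were seen. Nuclear genes of the small nuclear RNA type took 13.8, 16.1 and 14.4 of every 1000000 reads in vehicle and 12.5, 6.09 and 6.76 with nanoparticles, all below vehicle. Nuclear genes of the small nucleolar RNA type took 15.3 to 18.9 in vehicle on the same scale and 15.9, 11.4 and 11.8 with nanoparticles. Genes annotated as nuclear rRNA took 244 to 420 in vehicle and 244 to 356 with nanoparticles. The nuclear noncoding gene Gm26917 was higher in every nanoparticle library, at 14.6 FPKM or more against 8.20 to 10.4 FPKM (log2 difference 0.75, limma adjusted p = 0.012). Rn7sk, a small nuclear RNA that binds a transcription elongation factor, stood at 2.27 to 4.27 FPKM in vehicle and at 2.40, 4.93 and 5.17 FPKM with nanoparticles, so the groups overlapped. How rRNA was removed or mRNA selected is not given in the sources used here, and the part of that step in the rRNA result was not tested.

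**Figure D2:**
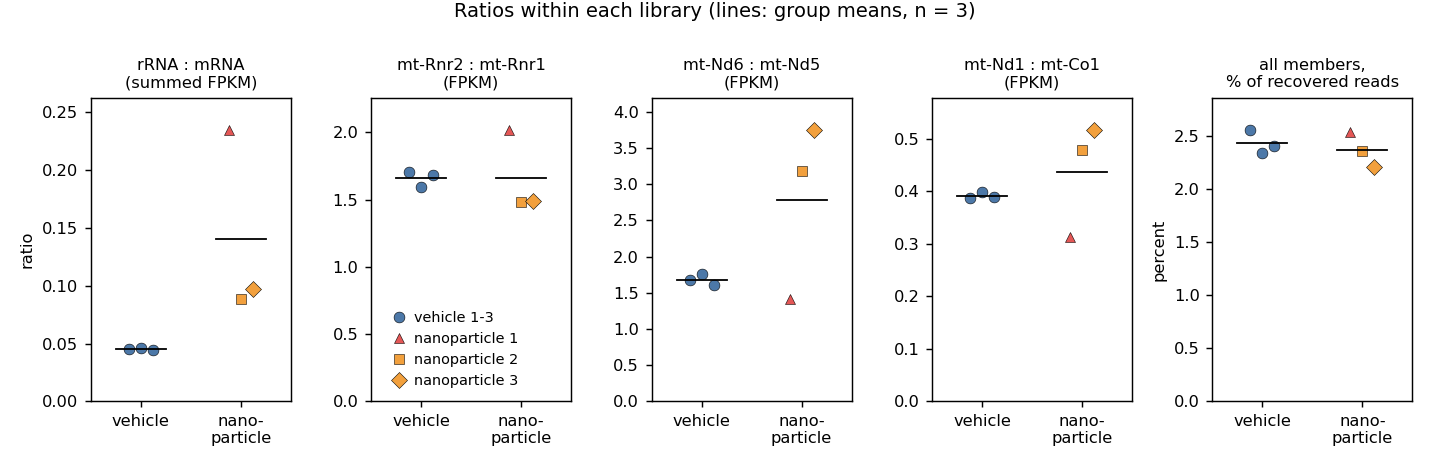
Ratios and shares within each library, with vehicle left and nanoparticle right in each panel, 1 point per library and the group mean as a line (n = 3). The rRNA to mRNA ratio was 0.0448 to 0.0459 in vehicle and 0.0886 to 0.234 with nanoparticles, and in the mt-Nd6 to mt-Nd5 panel nanoparticle library 1 (1.42) lay below vehicle while libraries 2 and 3 (3.18 and 3.74) lay above.

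Among complex I mRNAs, mt-Nd6, the single mRNA of the minus strand, had the largest increase in mean level. It stood at 1931, 1823 and 1839 FPKM in vehicle and at 1867, 3455 and 4514 FPKM with nanoparticles. Nanoparticle library 1 lay among the vehicle libraries and the other 2 far above them. The log2 difference over all libraries was 0.72 (95% interval -0.10 to 1.54) and did not pass (limma adjusted p = 0.154). Without nanoparticle library 1 it was 1.08 and passed (limma adjusted p = 2.7e-04).

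mt-Nd6 shares 14 bases with the end of mt-Nd5 on the opposite strand, and the sources used here do not say whether counting used strand. Against mt-Nd5 its level ratio was 1.67, 1.75 and 1.61 in vehicle and 1.42, 3.18 and 3.74 with nanoparticles. Its share of the summed FPKM of the 13 mRNAs was 11.2%, 11.7% and 11.6% in vehicle and 10.9%, 17.2% and 22.9% with nanoparticles. In this share too, nanoparticle library 1 lay just below the vehicle libraries and libraries 2 and 3 above them. Reads of the opposite strand that cover mt-Nd6 without being its mRNA cannot be told apart from it here.

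Of the complex I mRNAs on the plus strand, mt-Nd1, mt-Nd2, mt-Nd4 and mt-Nd5 had log2 differences from 0.09 to 0.23. mt-Nd1 stood at 2588, 2372 and 2379.9 FPKM in vehicle and 2233, 3284 and 3088 FPKM with nanoparticles, lowest in nanoparticle library 1 and highest in libraries 2 and 3 (log2 difference 0.21, 95% interval -0.31 to 0.73, limma adjusted p = 0.496). mt-Nd2 stood at 983, 910.4 and 926 FPKM in vehicle and 1006, 1189.8 and 1109.5 FPKM with nanoparticles. Its groups did not overlap, by a narrow margin, and the log2 difference of 0.23 (95% interval -0.13 to 0.59) did not pass. mt-Nd4 stood at 1072, 1003 and 999.7 FPKM in vehicle and 1022, 1179 and 1078 FPKM with nanoparticles (log2 difference 0.09, 95% interval -0.26 to 0.45). mt-Nd5 stood at 1155, 1040.0 and 1140.4 FPKM in vehicle and 1318, 1085 and 1207 FPKM with nanoparticles (log2 difference 0.11, 95% interval -0.27 to 0.49). For both, the groups overlapped. Without nanoparticle library 1, mt-Nd1 (0.38) and mt-Nd2 (0.29) passed.

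mt-Nd3 and mt-Nd4l, the smallest complex I mRNAs, were at a few FPKM. mt-Nd3 stood at 5.91, 6.09 and 2.89 FPKM in vehicle and 3.70, 6.42 and 7.01 FPKM with nanoparticles, on 21 to 47 reads per library. mt-Nd4l stood at 7.27, 6.28 and 9.68 FPKM in vehicle and 5.98, 4.27 and 1.92 FPKM with nanoparticles, on 11 to 60 reads. It was the one member whose nanoparticle libraries all lay below vehicle. Its log2 difference of -0.86 (95% interval -1.66 to -0.06) did not pass over all libraries (limma adjusted p = 0.0935), but it passed with total-read scaling (-1.14) and without nanoparticle library 1 (-1.14). Gm10222, a nuclear copy that matches 294 of its 297 bases without a mismatch, had 120, 151 and 108 reads in vehicle and 77, 104 and 163 with nanoparticles, against 43, 37 and 60 and then 29, 21 and 11 for mt-Nd4l. In nanoparticle library 3 the copy was at its highest and mt-Nd4l at its lowest, so the split of reads between them bears on this difference and was not tested. mt-Nd4l also shares 7 bases with mt-Nd4.

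mt-Cytb, the complex III subunit cytochrome b, stood at 2588, 2291 and 2377 FPKM in vehicle and 2464, 2809 and 2564 FPKM with nanoparticles, with overlapping groups (log2 difference 0.11, 95% interval -0.30 to 0.52). Of complex IV, mt-Co1, the catalytic subunit and the most abundant member, stood at 6691, 5949 and 6117 FPKM in vehicle and 7144, 6867 and 5992 FPKM with nanoparticles (log2 difference 0.09, 95% interval -0.40 to 0.58). Nanoparticle library 1 was its highest library, where it was the lowest for mt-Nd1. The mt-Nd1 to mt-Co1 ratio was accordingly 0.387 to 0.399 in vehicle, 0.312 in nanoparticle library 1, and 0.478 and 0.515 in libraries 2 and 3.

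mt-Co2 stood at 90.2, 81.3 and 74.6 FPKM in vehicle and 60.4, 126 and 124 FPKM with nanoparticles. Nanoparticle library 1 was the lowest of all 6 and the other 2 the highest, and the call (0.60) came without nanoparticle library 1 alone. mt-Co3 stood at 25.7, 26.4 and 23.5 FPKM in vehicle and 15.5, 31.4 and 24.8 FPKM with nanoparticles. Of the ATP synthase mRNAs, mt-Atp6 stood at 28.7, 24.7 and 19.7 FPKM in vehicle and 18.9, 25.8 and 24.7 FPKM with nanoparticles, again with overlapping groups. mt-Atp8 had 1 to 4 reads in every library, too few to compare, and 43 of its bases are shared with mt-Atp6.

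Over the 12 mRNAs tested, log2 differences ran from -0.86 to 0.72, and 9 were above 0 on the deposited scale but 1 with libraries scaled by total reads. The summed mRNA level was 17167, 15532 and 15909.8 FPKM in vehicle and 17159, 20064 and 19735 FPKM with nanoparticles. As a share of all recovered reads, mRNA was instead lower in every nanoparticle library, at 2.02%, 2.13% and 1.98% against 2.23% to 2.43% in vehicle. A direction for the mRNAs as a class therefore rests on the scaling. For the rRNAs it does not: they took 0.110% to 0.117% of all reads in vehicle and 0.509%, 0.213% and 0.225% with nanoparticles.

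**Figure D3:**
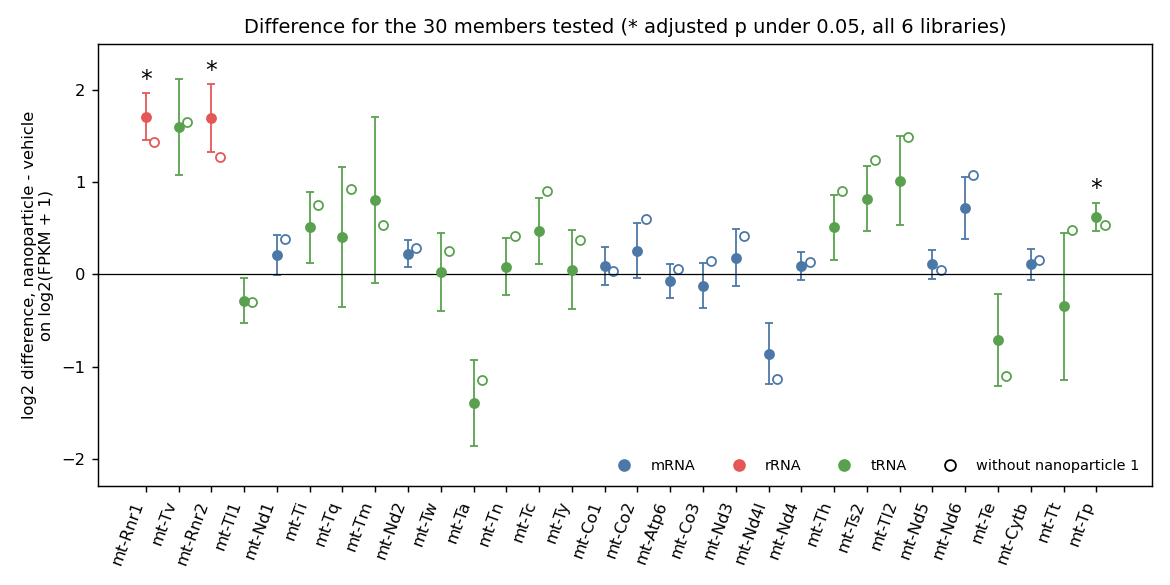
Log2 difference between nanoparticle and vehicle on log2(FPKM + 1) for the 30 members tested, in gene order, with filled points and bars for the fit over 6 libraries (± SE) and open points for the fit without nanoparticle library 1. Asterisks mark the 3 members past an adjusted p of 0.05. The rRNAs sit near 1.7, mt-Tp at 0.62, and the open points of mt-Nd6, mt-Tc, mt-Th, mt-Ts2 and mt-Tl2 sit above their filled points.

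Of the tRNA genes, mt-Tp was the most abundant and the one that passed. It stood at 772, 681 and 736 FPKM in vehicle, on 904 to 1030 reads, and at 1268, 1044 and 1067 FPKM with nanoparticles, on 1158 to 1387 reads. Every nanoparticle library lay above every vehicle library. The log2 difference was 0.62 (SE 0.156, limma adjusted p = 0.0244). This call was among the least stable: it held under 7 of 16 alternatives, the difference was 0.28 with total-read scaling (adjusted p = 0.193) and 0.15 with equal sums of FPKM, and the adjusted p reached 0.53. As a share of all reads mt-Tp was still higher in each nanoparticle library, at 0.00784%, 0.00630% and 0.00629% against 0.00525% to 0.00584%.

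mt-Th, mt-Ts2 and mt-Tl2, which lie end to end between mt-Nd4 and mt-Nd5, separated nanoparticle library 1 from the others. Their summed level was 214, 158 and 195 FPKM in vehicle. With nanoparticles it was 172 FPKM in library 1, 376 FPKM in library 2 and 477 FPKM in library 3. mt-Ts2 stood at 59.5, 52.2 and 53.6 FPKM in vehicle and 54.0, 128 and 135 FPKM with nanoparticles. None of the 3 passed over all libraries (log2 differences 0.51, 0.82 and 1.02, limma adjusted p 0.311, 0.124 and 0.159). All 3 passed without nanoparticle library 1, at 0.91, 1.24 and 1.49.

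mt-Tc, in a block of minus-strand tRNAs, was also higher in nanoparticle libraries 2 and 3 than in vehicle, while library 1 lay below every vehicle library. It stood at 260.1, 259.9 and 251 FPKM in vehicle and 197, 489 and 473 FPKM with nanoparticles, on 212 to 602 reads. Its log2 difference was 0.47 (95% interval -0.39 to 1.34) over all libraries and 0.90 without nanoparticle library 1, where it passed (limma adjusted p = 1.7e-05). Its neighbour mt-Tn, which reads asparagine codons, stood at 87.7, 116 and 106 FPKM in vehicle and 68.1, 118 and 159 FPKM with nanoparticles and did not pass in either fit.

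The remaining tRNAs rested on fewer reads. mt-Tl1, a leucine tRNA just after mt-Rnr2, had 36 to 91 reads per library and a log2 difference of -0.28 (95% interval -0.88 to 0.31), against 1.70 for the rRNA that ends where it starts. The other 8 that were tested, mt-Ti, mt-Tq, mt-Tm, mt-Tw, mt-Ta, mt-Ty, mt-Te and mt-Tt, had 0 to 39 reads per library and differences from -1.39 to 0.81. mt-Ta had 2, 4 and 6 reads in vehicle and 0, 2 and 0 with nanoparticles, at the limit of what such counts can show. It passed as lower with total-read scaling and with equal sums of FPKM, with or without the mitochondrial genes. The same call came with a replicate block and without nanoparticle library 2. mt-Tk and mt-Tg had 1 read each and mt-Tr had 8, all in nanoparticle libraries.

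The order of mRNA levels in vehicle fell into 2 tiers. Mean levels were 6252 ± 389 FPKM (SD, n = 3) for mt-Co1, 2447 ± 122 for mt-Nd1, 2419 ± 153 for mt-Cytb, 1864 ± 58.3 for mt-Nd6, 1112 ± 62.5 for mt-Nd5, 1025 ± 40.9 for mt-Nd4 and 939.8 ± 38.3 for mt-Nd2. Among these neighbours mt-Nd1 and mt-Cytb overlapped, as did mt-Nd5 and mt-Nd4. The second tier held mt-Co2 at 82.0 ± 7.80 FPKM, mt-Co3 at 25.2 ± 1.53, mt-Atp6 at 24.4 ± 4.54, mt-Nd4l at 7.74 ± 1.75, mt-Nd3 at 4.96 ± 1.80 and mt-Atp8 at 0.567 ± 0.378, with mt-Co3 and mt-Atp6 overlapping.

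All 6 mRNAs of the second tier lie whole within a stretch of the mitochondrial genome that chromosome 1 also holds. A run of 7 unprocessed pseudogenes at chr1:24611535-24616197 on the minus strand (Gm28439, Gm10222, Gm28438, Gm28437, Gm10925, Gm28661 and Gm29216, GRCm38) matches chrM:6390-11042, and 11 mitochondrial genes lie whole inside that span, with mt-Co1 and mt-Nd4 partly inside. The 2 tRNAs not listed from this span, mt-Ts1 and mt-Td, and the 3 untested tRNAs, mt-Tk, mt-Tg and mt-Tr, lie in it too. Of all possible 100-base windows, 99.5% in mt-Co2, 99.5% in mt-Atp6, 99.9% in mt-Co3, 97.6% in mt-Nd3 and 98.5% in mt-Nd4l were found unchanged in an annotated nuclear transcript. Upper-tier genes had nuclear copies too, but partial or less exact ones. The share was 60.8% in mt-Nd4, 30.8% in mt-Co1, 3.19% in mt-Nd2 and 0% in mt-Nd1, mt-Nd5, mt-Nd6, mt-Cytb, mt-Rnr1 and mt-Rnr2. For mt-Atp8 it was 0% as well, although the gene lies inside the span, and no annotated transcript of the run lies between Gm10925 and Gm28661, where its copy would be.

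**Figure D4:**
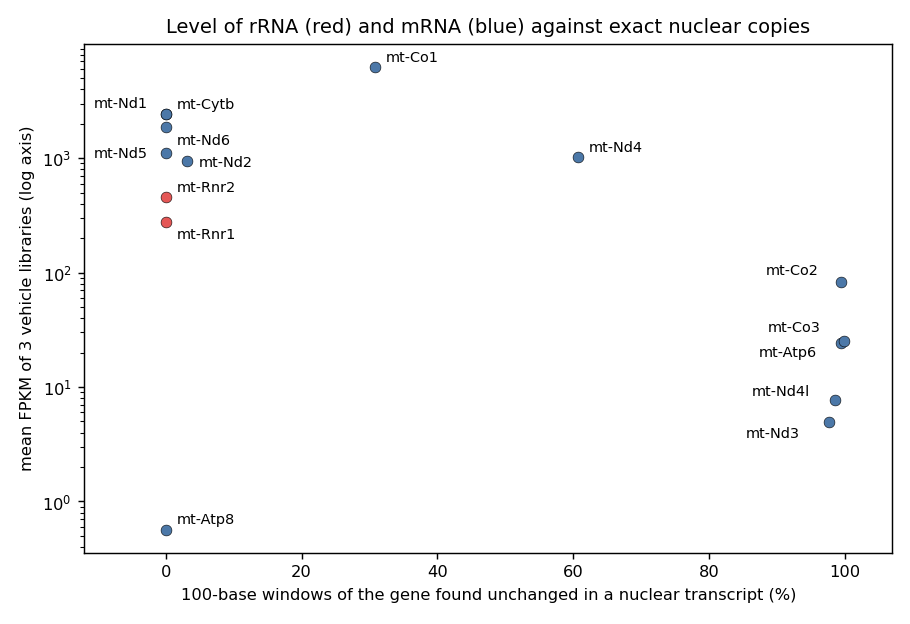
Mean vehicle level (FPKM, log axis, n = 3) of the rRNAs (red) and mRNAs (blue) against the share of their 100-base windows found unchanged in an annotated nuclear transcript. The 5 genes at 97.6% to 99.9% lie at 82.0 FPKM or less, the genes at 0% to 60.8% lie at 275 FPKM or more, and the exception is mt-Atp8 at 0% and 0.567 FPKM.

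The closeness of these copies is shown by the first 100 bases of mt-Nd3 and of its copy Gm28438 (chr1:24612775-24613119), which differ by T3C, counted from 1 at the start of mt-Nd3. Over their whole aligned 345 bases they had 1 mismatch, while the copies of mt-Co2, mt-Atp6, mt-Co3 and mt-Nd4l had 0. By contrast mt-Cytb and its nearest copy Gm11410 (chr4:80003989-80005131) were 92.9% identical over 1142 bases, and the 100 bases from base 2 of mt-Cytb differ by G14A, C24T, C61T, T66C and C78T, counted from 1 at the start of mt-Cytb. Capitals mark the differing bases.
mt-Nd3: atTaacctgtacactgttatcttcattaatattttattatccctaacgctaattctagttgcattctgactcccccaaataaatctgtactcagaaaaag
Gm28438: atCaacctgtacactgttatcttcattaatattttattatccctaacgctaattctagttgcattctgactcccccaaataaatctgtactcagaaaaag
mt-Cytb: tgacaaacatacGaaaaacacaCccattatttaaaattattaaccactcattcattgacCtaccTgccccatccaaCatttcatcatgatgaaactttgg
Gm11410: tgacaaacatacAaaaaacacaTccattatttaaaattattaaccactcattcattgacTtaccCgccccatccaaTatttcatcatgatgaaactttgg

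The copies carried counts of their own, and how these compared with the matching member varied. Gm28661, the copy of mt-Co2, stood at 91.1, 75.4 and 81.0 FPKM in vehicle and 65.0, 125 and 130.1 FPKM with nanoparticles, close to mt-Co2 in level and in the order of libraries. Gm28438 stood at 63.4, 68.4 and 59.7 FPKM in vehicle and 43.0, 121 and 149 FPKM with nanoparticles, above mt-Nd3 in every library. Gm28439, the copy of the first 876 bases of mt-Nd4, stood at 8.25, 7.49 and 6.67 FPKM in vehicle and 4.12, 2.83 and 1.66 FPKM with nanoparticles, far below mt-Nd4. The 7 pseudogenes together had 3225, 3045 and 2923 reads in vehicle and 1747, 3496 and 4478 with nanoparticles. How reads that match more than 1 place were counted is not given in the sources used here. The levels of mt-Co2, mt-Atp8, mt-Atp6, mt-Co3, mt-Nd3 and mt-Nd4l are therefore uncertain, and the part of read assignment in their place below the other mRNAs was not tested. The rRNAs, mt-Nd6 and mt-Cytb had no 100-base window unchanged in an annotated nuclear transcript. Of 50-base windows the share was 1.04% in mt-Rnr2 and 0% in mt-Rnr1, mt-Nd6 and mt-Cytb.

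Nanoparticle library 1 departed from the others in opposite directions for rRNA and for most other members. It was below both other nanoparticle libraries in 9 of 12 mRNAs and 11 of 16 tRNAs tested and above both in 2 of 2 rRNAs. Over all genes tested, 46.3% were lower in it than in both, and 4517 of 10682 were higher in it than in both. Without it, 13 of the 30 members passed, 12 higher and 1 lower, where 64.8% of all genes tested did, 34.3% higher and 30.5% lower. The 12 were mt-Rnr1, mt-Rnr2, mt-Nd1, mt-Nd2, mt-Nd6, mt-Co2, mt-Tp, mt-Tc, mt-Th, mt-Ts2, mt-Tl2 and mt-Tv, and the 1 was mt-Nd4l.

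The nuclear subunits that assemble with the mitochondrially encoded ones showed this library's position most clearly. Over the 73 nuclear subunits of complexes I, III and IV and of ATP synthase, the summed level was 4433, 4560.3 and 4406 FPKM in vehicle. With nanoparticles it was 3107 FPKM in library 1, 6286 FPKM in library 2 and 7286 FPKM in library 3. In nanoparticle library 1, 69 of the 73 lay below every vehicle library, while in libraries 2 and 3, 67 and 72 lay above every one. Of all genes tested, 46.7% lay below every vehicle library in nanoparticle library 1, and 45.3% and 46.2% lay above every one in libraries 2 and 3. The median ratio to the vehicle mean was 0.683 in nanoparticle library 1, and 1.38 and 1.62 in libraries 2 and 3. Over all libraries 0 of the 72 subunits tested passed under limma, where 33.2% of all genes tested did. At an unadjusted p under 0.05 there were 2, beside 44.4% of all genes tested. The subunits' median log2 differences were 0.15, 0.25, 0.30 and 0.13 for complexes I, III and IV and ATP synthase, beside 0.00 over all genes tested. Without nanoparticle library 1, 64 of the 72 passed and all of those were higher. In that fit 64.8% of all genes tested passed, 34.3% higher. As single examples, Cox5a of complex IV stood at 66.5, 65.6 and 62.6 FPKM in vehicle and 35.7, 89.0 and 105 FPKM with nanoparticles, and Uqcrb of complex III at 76.4, 53.4 and 71.7 FPKM and 43.2, 125 and 143 FPKM.

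The mitochondrial mRNAs of the same complexes spread less between the nanoparticle libraries. The summed complex I mRNAs were 7741, 7160.2 and 7297 FPKM in vehicle and 7455, 10204 and 11005 FPKM with nanoparticles, and the summed complex IV mRNAs 6807, 6056 and 6215 FPKM and 7219.9, 7024 and 6140.4 FPKM. In the first set library 1 lay within vehicle, unlike the nuclear subunits, and libraries 2 and 3 lay above it. mt-Nd6 held 1823 to 1931 FPKM of this sum in vehicle and 1867, 3455 and 4514 FPKM with nanoparticles. The order of library 3 over library 2, shared with the nuclear subunits, rests on mt-Nd6. Of the others, mt-Nd1, mt-Nd2, mt-Nd4 and mt-Nd4l were lower in library 3 than in library 2, and mt-Nd3 and mt-Nd5 higher. In the second set, which is mostly mt-Co1, libraries 1 and 2 lay above vehicle and library 3 within it.

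Of the proteins that bind mitochondrial rRNA in the ribosome, 11 of 78 tested rose and 0 fell, where 17% of all genes tested were called higher and 16.2% lower, with a median log2 difference of 0.14. In the other 11 nuclear lists, described next, the medians ran from -0.10 to 0.16. Mrpl1 stood at 3.09, 3.14 and 2.92 FPKM in vehicle and 5.36, 5.29 and 5.41 FPKM with nanoparticles (log2 difference 0.65, limma adjusted p = 0.0020). Mrpl45 stood at 8.55, 8.41 and 9.76 FPKM and at 16.1, 19.7 and 21.1 FPKM (1.01, adjusted p = 0.0021), and Mrpl14 at 17.6, 18.5 and 15.5 FPKM and at 28.5, 33.0 and 38.8 FPKM (0.91, adjusted p = 0.0042). These 3 were picked as called genes with separated groups, so their separation was fixed by the choice. With total-read scaling 5 of the 78 were higher and 8 lower, beside 10.2% and 34.2% of all genes tested. Without nanoparticle library 1, 56 were higher and 2 lower, beside 34.3% and 30.5%.

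Among proteins that transcribe the mitochondrial genome, 33.3% of the genes tested passed, 1 higher and 1 lower, beside 33.2% of all genes tested. Of 6 tested, Tfb2m, the factor that opens the promoter for the polymerase, fell, at 4.60, 5.54 and 4.18 FPKM in vehicle and 2.60, 3.51 and 2.59 FPKM with nanoparticles (log2 difference -0.57, limma adjusted p = 0.0249). Mterf3, of the family of mitochondrial termination factors, rose from 2.59, 2.65 and 2.86 FPKM to 3.50, 4.44 and 3.65 FPKM (0.39, adjusted p = 0.0361). The polymerase Polrmt (3.12, 3.83 and 3.23 FPKM against 3.27, 2.61 and 2.44 FPKM) and the packaging and initiation factor Tfam (3.49, 3.84 and 4.31 FPKM against 4.51, 4.04 and 5.23 FPKM) overlapped between the groups and did not pass.

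Of the enzymes that cut tRNAs out of the precursors or add tails, 0 of 8 passed, where 33.2% of all genes tested did. Elac2, which cuts at the 3′ end of tRNAs, stood at 7.01, 6.97 and 7.34 FPKM in vehicle and 4.42, 5.18 and 6.29 FPKM with nanoparticles (log2 difference -0.38, limma adjusted p = 0.0685). Hsd17b10, part of the complex that cuts at their 5′ end, stood at 21, 21.3 and 21.8 FPKM and at 5.99, 23.5 and 24.5 FPKM, and so was low in nanoparticle library 1 alone.

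Among 11 tested stability and granule proteins 1 rose and 1 fell, where 17% of all genes tested were called higher and 16.2% lower. Lrpprc, which binds and stabilises mitochondrial mRNAs, fell from 6.52, 7.15 and 7.25 FPKM to 4.03, 4.92 and 4.88 FPKM. Its log2 difference was -0.51 (limma adjusted p = 0.0126). Its partner Slirp was higher in every nanoparticle library (0.922, 0.666 and 1.11 FPKM against 1.32, 1.69 and 2.98 FPKM) and did not pass (adjusted p = 0.0702). Fastk, of the family that acts on mitochondrial RNA and itself tied to mt-Nd6 mRNA, rose from 8.95, 9.50 and 9.04 FPKM to 11.2, 12.0 and 12.2 FPKM (0.33, adjusted p = 0.0315). Of 4 decay genes tested 1 rose, beside the 17% of all genes tested that were called higher. This gene was Pnpt1, the polynucleotide phosphorylase that degrades mitochondrial RNA with the helicase Supv3l1. It rose from 6.31, 6.50 and 6.92 FPKM to 10.1, 10.6 and 12.5 FPKM (0.67, limma adjusted p = 0.0049). Supv3l1 itself overlapped, at 4.18, 4.42 and 4.10 FPKM and 3.59, 4.19 and 4.58 FPKM.

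In the replication and nucleotide supply list, 2 of 16 rose and 2 fell, where 17% of all genes tested were higher and 16.2% lower. Cmpk2 is a mitochondrial nucleotide kinase known to be induced by interferon and microbial signals. It rose from 1.21, 1.47 and 1.59 FPKM to 394, 105 and 115 FPKM (log2 difference 6.13, limma adjusted p = 3.8e-04). Like the rRNAs it was highest in nanoparticle library 1, which was above both other nanoparticle libraries in 4517 of 10682 genes tested. The helicase-nuclease Dna2, which also acts in the nucleus, fell from 5.56, 6.87 and 7.47 FPKM to 1.45, 2.18 and 1.81 FPKM (-1.44, adjusted p = 8.5e-04). The pyrimidine nucleotide carrier Slc25a33 rose (0.60, adjusted p = 0.0293).

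Among proteins that act on the tRNAs and rRNAs, 1 of 18 modification genes rose, where 17% of all genes tested were called higher. This gene, the tRNA methyltransferase Trmt5, rose from 4.62, 4.55 and 3.54 FPKM to 7.07, 5.73 and 6.43 FPKM. Its log2 difference was 0.50 (limma adjusted p = 0.0264). Tfb1m, which methylates mt-Rnr1, was at 0.960, 1.01 and 1.07 FPKM in vehicle and 1.15, 1.57 and 1.09 FPKM with nanoparticles and did not pass. Of 15 aminoacylation genes tested 2 fell, where 16.2% of all genes tested did. They were Qrsl1 (-0.64, limma adjusted p = 0.0103) and Gatc (-0.60, limma adjusted p = 0.0197). Both are parts of the enzyme that completes the charging of the glutamine tRNA. The mitochondrial enzyme that charges mt-Tp, Pars2, was under the filter, at 0.604 to 1.02 FPKM. Of 11 translation factors 0 passed, and of 4 complex II subunits, a complex with no mitochondrially encoded member, 0 passed. Of all genes tested, 33.2% passed.

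Of 6 regulators of mitochondrial biogenesis tested, 1 rose and 1 fell, so 33.3% passed, beside 33.2% of all genes tested. The coactivator Ppargc1b fell from 2.69, 2.52 and 2.46 FPKM to 1.34, 1.21 and 1.48 FPKM (log2 difference -0.60, limma adjusted p = 0.0043). Gabpb1 is a subunit of the factor also called NRF-2. It rose from 1.90, 1.69 and 2.09 FPKM to 3.62, 3.45 and 3.26 FPKM (0.62, limma adjusted p = 0.0045). Of 15 genes used as marks of mitochondrial content, 2 rose and 0 fell, where 17% and 16.2% of all genes tested did. The 2 were the outer membrane channel Vdac3 (0.72, limma adjusted p = 0.0039) and the import channel subunit Timm23 (0.56, limma adjusted p = 0.0343). With libraries scaled by total reads, each nuclear gene named here as having risen or fallen kept its sign, and Mterf3 (0.13), Slc25a33 (0.33), Fastk (0.016), Trmt5 (0.22) and Timm23 (0.23) no longer passed.

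**Figure D5:**
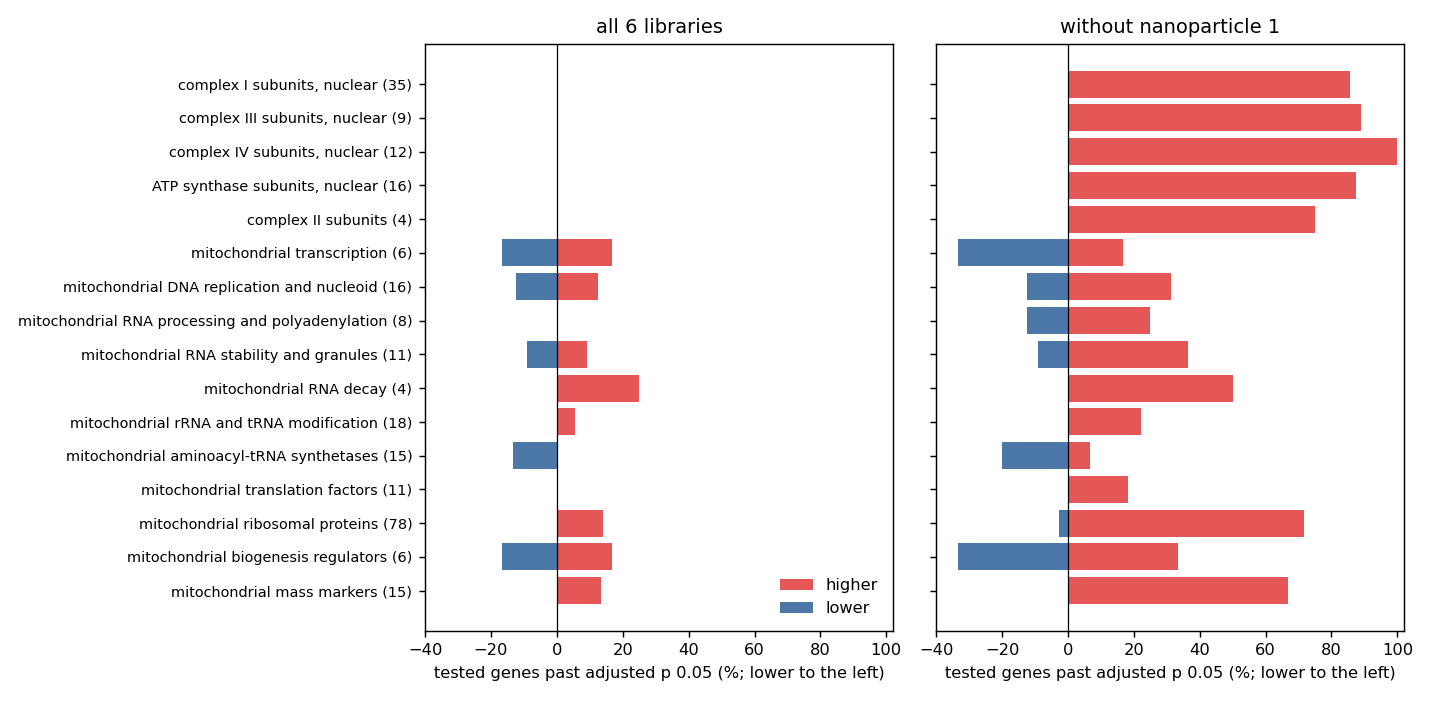
Percent of tested genes past an adjusted p of 0.05 in each nuclear list, higher to the right and lower to the left, with all 6 libraries and without nanoparticle library 1, and the number tested in brackets. Complexes I, III, IV and ATP synthase went from 0 called to 30 of 35, 8 of 9, 12 of 12 and 14 of 16, while 17% of all genes tested were called higher with all libraries and 34.3% without that library.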

How the data were processed

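Both deposited tables hold the same numbers (140388 of 140388 values identical), 1 for each gene in each library. The submitters' processing notes name CASAVA, STAR 2.5, HTSeq, edgeR 3.16.5 and DESeq2 2, and the builds mm10 and hg19, with no role or order. No header or label names the unit. The deposited values were treated as FPKM, since multiplying by GENCODE M21 merged exon lengths and 1 step per library gave whole reads (within 0.01) for 95.8% to 96.1% of values above 0. Library preparation from 1 µg of total RNA is stated in the labels' protocols. Strand, multi-mapping and rRNA removal are not given in the sources used here.

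Groups and replicate numbers came from titles and treatment labels. The 10682 genes that reached 1 FPKM in 3 or more libraries were tested with limma 3.58.1 in R 4.3.3 on log2(FPKM + 1), with lmFit and eBayes with a trend, group as the single term and Benjamini-Hochberg adjustment at 0.05. The log2 differences understate changes of low genes. Members, nuclear lists and markers were chosen with earlier results of these data known. All members were described, as were up to 3 called genes with separated groups per nuclear list, and genes acting directly on a member. Cox5a, Uqcrb, Gm26917 and Rn7sk were chosen after their values were seen. Prorp was matched as 1110008L16Rik. Sums and ratios over members were given without tests. Nuclear copies were sought as exact windows of 50 and 100 bases in 141730 nuclear GENCODE M21 transcripts and with blastn 2.17.0. Alternatives covered pseudocount, filters, scalings, trend, voom on recovered reads, a replicate block and each library left out. The depth of 17219641 to 21902784 reads sets the counting error alone, as reads carry no molecular identifiers and are not independent molecules.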

Additional observations from a re-analysis of the deposited data

How the results depend on the processing

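Scaling decides the sign of small mRNA and tRNA differences. With libraries at equal sums of FPKM, at total reads, and at equal sums without the mitochondrial genes, in that order, the log2 difference turned to -0.26, -0.13 and -0.27 for mt-Nd1, -0.24, -0.12 and -0.25 for mt-Nd2, -0.42, -0.30 and -0.43 for mt-Tw, -0.38, -0.26 and -0.39 for mt-Tn, -0.38, -0.26 and -0.38 for mt-Ty, -0.38, -0.25 and -0.39 for mt-Co1, -0.21, -0.082 and -0.21 for mt-Co2, -0.21, -0.10 and -0.22 for mt-Nd3, -0.38, -0.25 and -0.38 for mt-Nd4, -0.36, -0.23 and -0.37 for mt-Nd5, and -0.36, -0.23 and -0.37 for mt-Cytb. For mt-Tc it turned to -0.00225 under the last of these. The summed mRNA ratio of nanoparticle over vehicle, 1.17 as deposited, became 0.883 as a share of reads and 0.840 at equal sums without mitochondrial genes, and the summed tRNA ratio, 1.49, became 1.17 and 1.07. These shifts follow from the scalings, which lowered the median of all genes. Members called lower numbered 5, 2 and 5 under the same 3 scalings, and members called higher 1 under the last. The 5 were mt-Atp6, mt-Co3, mt-Nd4l, mt-Ta and mt-Tl1 both times, and the 2 were mt-Nd4l and mt-Ta. Of all genes tested, 4416 of 10814, 3680 of 10771 and 4445 of 10814 were called lower, and 853 higher under the last. Nuclear list genes called were 20 higher and 7 lower as deposited, 9 and 42 at total reads, and 5 and 65 at equal sums. Without nanoparticle library 1 they were 156 and 13. Of all genes tested, 17% were higher and 16.2% lower as deposited, and 10.2% and 34.2% at total reads. At equal sums 863 of 10814 were higher and 4416 lower. Without nanoparticle library 1 the shares were 34.3% and 30.5%.

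Leaving out each library in turn gave 2141 to 6923 genes past the threshold, 1 to 12 members called higher and 0 to 1 called lower. The highest count came without nanoparticle library 1. Signs also turned in some of these fits, where the differences ranged from -0.36 to 0.93 for mt-Tq, -0.39 to 0.26 for mt-Tw, -0.19 to 0.42 for mt-Tn, -0.38 to 0.38 for mt-Ty, -0.21 to 0.064 for mt-Atp6, -0.34 to 0.15 for mt-Co3, -0.099 to 0.42 for mt-Nd3 and -1.13 to 0.49 for mt-Tt. For these the cause was not tested. Alternatives with nuclear lists or ratios without 1 library were added after seeing the data.

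Deviations of same-numbered libraries from their group means correlated at 0.0654, 0.113 and -0.0577. Those of differently numbered libraries correlated at -0.129 to 0.108. With 3 libraries per group these values cannot decide whether replicate numbers pair the libraries. With a replicate block 2785 genes passed, mt-Rnr1 and mt-Rnr2 among them, 1 member was called lower and mt-Tp was not called. Values resting on a few reads, as for most tRNAs, limit what could be detected.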
